A study of Mus musculus with 4 samples.

Results

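Plasma cells of the small intestinal lamina propria (SILP), the connective tissue layer under the gut epithelium, were picked out of single-cell RNA-Seq libraries of WT and A20ZF7 mice. A barcode, the label of one droplet, was taken as a plasma cell where Igha, Jchain and Igkc together held at least 10% of its unique molecular identifiers (UMIs, counts of single RNA molecules), where at least 1 UMI came from Mzb1 or Xbp1, and where at most 1 UMI came from the T cell genes Cd3e, Cd3d, Cd3g, Trac and Trbc2. Barcodes also had to hold at least 500 UMIs, 200 to 2500 genes and at most 15% mitochondrial UMIs. The rule found 453 plasma cells among 22148 WT barcodes that pass these limits and 674 among 38248 A20ZF7 barcodes, 1127 of 60396 in all. The rule used Igha, Jchain, Igkc, Mzb1, Xbp1 and the T cell genes, so the members were chosen by these measured values, and the levels of these genes in them are a description.

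Each genotype was 1 gene expression library made with a 5′ kit from 2 mice of 12 weeks (the age in the series text), whose cells carried a hashtag antibody per mouse and were pooled. The A20ZF7 mice are homozygous knock-in mice with point mutations in the seventh zinc finger of A20, the motif that binds linear ubiquitin chains, carried in the germline and so in every cell, and the WT mice carry no such change. In both genotypes lamina propria cells had gone through a negative selection that enriches T cells and innate lymphoid cells, and 60000 cells per genotype were collected, so shares of plasma cells are shares of what this selection left. A single library per genotype allows no replicate error and no test of a genotype effect. Ranges given in parentheses are exact 95% confidence intervals of the counts alone, and animal, library and genotype cannot be told apart. The matrices list 576003 WT barcodes with 35289432 UMIs and 612069 A20ZF7 barcodes with 54587004 UMIs. Of the barcode sequences that pass the limits, 1196 occur in both libraries, but among the plasma cells 1 does.

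Plasma cells are B lineage cells that have turned into factories for one antibody. The transcription factors Blimp-1 (Prdm1), IRF4 and XBP1 drive this state, in which the endoplasmic reticulum grows and the unfolded protein response keeps folding and quality control in step with antibody synthesis. In the small intestine most of them make dimeric IgA, held together by the J chain and carried through the epithelium into the lumen by the polymeric immunoglobulin receptor.

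The rule did not use V genes, but these are read from the same transcripts as Igha and Igkc, which it did use. Their counts are therefore a description and do not set plasma cells apart from other cells of the B lineage. In most plasma cells 1 heavy chain V gene dominated. Among members with at least 5 UMIs of heavy chain V genes, 1 V gene held at least 80% of them in 413 of 434 WT plasma cells (95.16%, 92.7 to 96.98) and in 584 of 605 A20ZF7 plasma cells (96.53%, 94.74 to 97.84). For light chain V genes the counts were 424 of 451 (94.01%) and 624 of 667 (93.55%). As a description, since the rule's own genes are among them, all 16 markers of the plasma cell list lay at least 2-fold above the other passing barcodes in both libraries, the background being 12.5% of 4662 genes in WT and 7.41% of 5193 genes in A20ZF7. The B cell marker Ms4a1 (CD20) was near 0, with 0 WT and 1 A20ZF7 UMIs, but other B cell markers were present. Of the 14 B cell markers 3 were at 0 in both libraries, and 2 were counted at least 2-fold above the other passing barcodes in each library. The most abundant was Cd79a, the signalling chain of the B cell receptor, found in 71.74% of WT and 45.99% of A20ZF7 plasma cells. Cd79b was found in 33.11% and 18.25%. In T cell barcodes Cd79a was found in 1.589% and 1.861%, and Cd79b in 2.331% and 2.059%.

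The limit of 10% fell into a valley in WT and less so in A20ZF7. Between 2% and 10%, 17 WT and 115 A20ZF7 barcodes met the other terms of the rule, against 173 and 168 barcodes between 30% and 40%. The nearest barcodes inside the limit held 10.25% in WT and 10.08% in A20ZF7, and the nearest outside held 9.917% and 9.717%. Free RNA carries these 3 genes too. In barcodes of 10 to 100 UMIs, which mostly hold no cell, they made up 1.898% of UMIs in WT and 1.456% in A20ZF7, and in T cell barcodes 1.567% and 1.377%.

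**Figure D1:**
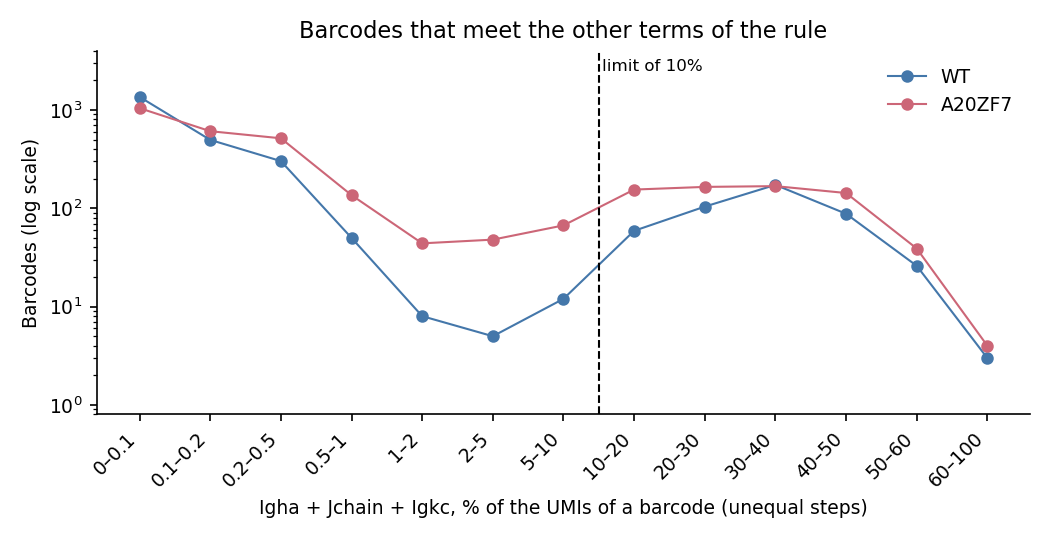
Barcodes (log scale) by the share of Igha, Jchain and Igkc in their UMIs (unequal steps, in %), for WT (blue) and A20ZF7 (red) barcodes that meet the other terms of the rule. The dashed line marks the limit of 10%; the step of 30 to 40% holds 173 WT and 168 A20ZF7 barcodes.

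Plasma cells made up 2.045% of WT barcodes (1.863 to 2.24) and 1.762% of A20ZF7 barcodes (1.633 to 1.899), a ratio of 0.862 (0.766 to 0.969). This direction rested on the limit on T cell genes. That limit removed 87 barcodes in WT (16.11% of those that meet the other terms) and 384 in A20ZF7 (36.29%). Without it, an alternative added after the data had been seen, the shares were 2.438% (2.239 to 2.65) in WT and 2.766% (2.604 to 2.935) in A20ZF7, a ratio of 1.135 (1.024 to 1.257). Among the removed barcodes with at least 5 heavy chain V UMIs, 1 V gene dominated in 78 of 84 in WT and 351 of 362 in A20ZF7. T cell transcripts in the free RNA were also more frequent in A20ZF7, with a summed level of the 11 T cell markers in barcodes of 10 to 100 UMIs of 1130 CPM in WT and 1542 CPM in A20ZF7 (CPM being UMIs per 1000000 UMIs outside immunoglobulin genes and Jchain). Their part in the removals was not tested. In WT, where cells could be assigned by hashtag, plasma cells made up 80 of 3995 barcodes (2.003%, 1.591 to 2.486) of hashtag 7 and 110 of 5807 barcodes (1.894%, 1.559 to 2.279) of hashtag 8, and these intervals overlap. No hashtag was called in 10366 of the 22148 WT barcodes, 221 plasma cells among them, so values by hashtag rest on the called barcodes.

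WT plasma cells held more UMIs per cell than A20ZF7 plasma cells. The median was 3500 UMIs in WT and 1779.5 in A20ZF7, while all passing barcodes had medians of 917 and 960. Most of the gap lay in antibody transcripts. Immunoglobulin genes and Jchain made up 61.65% of UMIs in WT and 45.52% in A20ZF7 plasma cells, and the median of UMIs outside them was 1172 and 865. Igha alone had a median of 597 UMIs per cell in WT, ranging from 2 to 1670, and 307 in A20ZF7, ranging from 1 to 1421. All levels are therefore given as CPM outside these genes, summed over the plasma cells of a library, where 3 UMIs equal 4.789 CPM in WT and 4.363 CPM in A20ZF7. They do not correct for transcript length, so genes are not ranked by level, and the gene named as most abundant in a list is the one with the most UMIs.

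IgA was the isotype of almost all of these cells. Igha held at least 80% of heavy chain constant UMIs in 451 of 452 WT plasma cells (99.78%) and in 665 of 671 A20ZF7 plasma cells (99.11%), a share that the rule favours. The exceptions were 1 WT plasma cell with Ighg2b and 6 A20ZF7 plasma cells, of which 4 had Ighg1, 1 Ighg2b and 1 Ighg2c. No plasma cell was called for Ighm, the constant gene of IgM. A lambda light chain was called in 18 of 450 WT cells (4.0%, 2.388 to 6.248) and 31 of 672 A20ZF7 cells (4.613%), and the rest were kappa cells, which the rule favours through Igkc.

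V gene UMIs per cell differed more between the libraries than constant gene UMIs. The median of heavy chain V UMIs was 168 in WT and 34 in A20ZF7, and that of light chain V UMIs was 717 and 184. For heavy chain constant genes the medians were 599 and 310, and for light chain constant genes 372 and 194. Per UMI of a heavy chain constant gene there were 0.38 V gene UMIs in WT and 0.168 in A20ZF7, and for light chains 2.16 and 1.181. The same shift stood in barcodes that are not plasma cells. In T cell barcodes the heavy chain ratio was 0.541 in WT and 0.255 in A20ZF7, in stromal barcodes 0.769 and 0.286, and in barcodes of 10 to 100 UMIs 0.271 and 0.142. The gene lists of the libraries differ, with 1746 IDs in WT alone and 335 in A20ZF7 alone. V genes were counted only where their IDs are listed for both. The part of this difference in the V gene counts, here and below, was not tested.

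The V genes in use were mostly the same in both genotypes, with a few that took different shares. As dominant genes, 67 heavy chain V genes occurred in WT and 70 in A20ZF7, of which 59 in both, and 60 and 74 light chain V genes, of which 54 in both. The most frequent light chain gene was Igkv10-96, whose coding exon lies at chr6:68631963-68632260 on the minus strand (GRCm38, GENCODE vM21). Among annotated V genes with an exon of the same length, compared base by base without gaps, its nearest copy is Igkv10-94. This lies at chr6:68704508-68704805 on the same strand, with 282 of 298 bases identical. Both exons are printed because reads of this exon can be told apart only at the 16 bases in capitals.
Igkv10-96: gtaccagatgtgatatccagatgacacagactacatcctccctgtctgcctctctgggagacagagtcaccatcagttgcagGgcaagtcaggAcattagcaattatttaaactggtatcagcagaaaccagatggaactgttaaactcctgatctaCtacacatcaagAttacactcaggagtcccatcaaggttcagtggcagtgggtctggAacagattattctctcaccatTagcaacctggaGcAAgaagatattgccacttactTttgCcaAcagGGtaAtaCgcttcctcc
Igkv10-94: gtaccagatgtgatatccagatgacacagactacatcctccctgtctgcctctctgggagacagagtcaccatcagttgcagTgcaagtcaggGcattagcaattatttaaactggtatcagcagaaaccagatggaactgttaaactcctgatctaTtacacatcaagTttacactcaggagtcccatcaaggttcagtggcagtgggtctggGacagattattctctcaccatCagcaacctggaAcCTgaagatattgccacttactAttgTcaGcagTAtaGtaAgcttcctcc
Igkv10-96 was dominant in 59 of 424 WT plasma cells (13.92%, 10.76 to 17.58) and 47 of 624 A20ZF7 plasma cells (7.532%, 5.586 to 9.89). Igkv10-94 was dominant in 8 and 12 cells.

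Among heavy chains, Ighv1-64 was the most frequent gene in WT, dominant in 40 of 413 plasma cells (9.685%, 7.01 to 12.95), against 28 of 584 in A20ZF7 (4.795%, 3.209 to 6.855). In WT it was dominant in 2 of 71 cells of hashtag 7 (2.817%, 0.343 to 9.808), below the A20ZF7 share, and in 11 of 99 cells of hashtag 8 (11.11%, 5.679 to 19.01). Igkv10-96 was dominant in 12 of 70 (17.14%) and 12 of 100 (12%). Over all 158 V genes found in either library the intervals of 6 did not overlap between the libraries. These were Ighv1-64, Igkv10-96 and, named after their values were seen, Ighv14-2 (14 and 3 cells), Ighv5-4 (0 and 12), Igkv17-121 (16 and 1) and Igkv6-23 (18 and 8). Ighv1-72, which differs from Ighv1-64 at 12 bases, was found in 28 WT cells (6.78%) and 22 A20ZF7 cells (3.767%). In A20ZF7 the most frequent heavy chain gene was Ighv1-26, with 39 cells (6.678%) against 22 in WT (5.327%), followed by Ighv3-6 with 37 cells (6.336%) against 24 (5.811%). Clones of cells share a V gene and are not independent, so these intervals are too narrow for V gene choice.

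**Figure D2:**
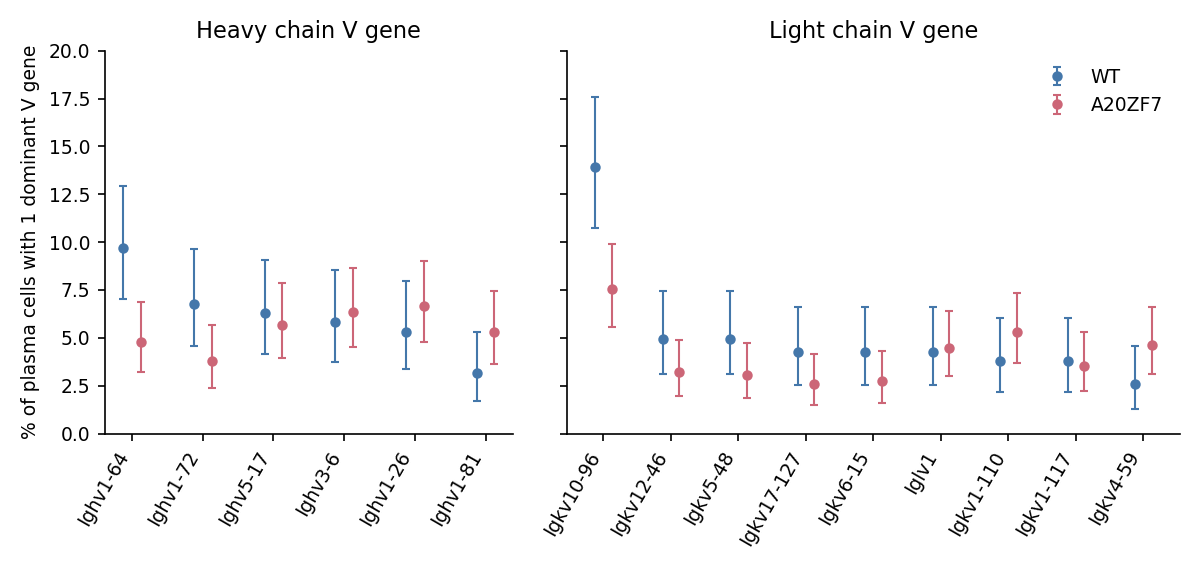
Share of plasma cells (in % of those with 1 dominant V gene) that used each heavy chain (left) or light chain (right) V gene, for WT (blue) and A20ZF7 (red), with exact 95% binomial intervals. Igkv10-96 stands at 13.92% in WT and 7.532% in A20ZF7, Ighv1-64 at 9.685% and 4.795%.

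Pairs of a heavy and a light chain V gene were diverse. In 407 WT plasma cells with both calls there were 255 pairs, and in 562 A20ZF7 plasma cells 366 pairs. Of these, 51 occurred in both libraries, which is 20% of the WT pairs and 13.93% of the A20ZF7 pairs. Pairs found in more than 1 cell held 52.83% of WT and 54.27% of A20ZF7 cells. The largest WT pair was Ighv1-64 with Igkv5-48, in 16 cells (3.931%, 2.263 to 6.306), and it was found in 0 of the 562 A20ZF7 cells. Of these 16 cells 1 had hashtag 7, 2 had hashtag 8, 2 had both and 11 had neither. The largest A20ZF7 pair, Ighv1-81 with Igkv1-117, was found in 8 cells (1.423%) and in 4 WT cells. A shared pair of V genes is not a shared clone, since the joining sequence between V, D and J was not analysed here. Among 26 WT pairs with at least 2 cells assigned to a hashtag, 16 were found under both hashtags.

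Genes that mark plasma cells had lower levels in A20ZF7, as a group. Of 100 genes with levels at least 5-fold above other barcodes in both libraries, other than the genes of the rule, 95 had a ratio of A20ZF7 to WT below 1, 25 were at least 2-fold lower and 0 were at least 2-fold higher. Their median log2 ratio was -0.62. Across all 5568 genes with at least 20 UMIs in the higher genotype, 3.7% (206 genes) were at least 2-fold lower and 6.9% (384 genes) at least 2-fold higher, with a median log2 ratio of 0.10. With the total of all UMIs in place of the total outside immunoglobulin genes, the split was 77 lower and 1226 higher, the median of all genes moved to 0.59 and that of the 100 genes to -0.13. The change of total shifts every gene alike, so the distance between these medians is fixed. With free RNA taken off (the profile of barcodes of 10 to 100 UMIs, scaled to the collagen genes Col1a1, Col1a2 and Col3a1 in the plasma cells) the balance turned to 1954 lower and 45 higher, with medians of -0.13 for all genes and -0.97 for the 100 genes. The scale was 1.339 in WT and 2.648 in A20ZF7, and a scale above 1 takes off more than the plasma cells held outside immunoglobulin genes, so these values are not read as corrected levels. In barcodes of 10 to 100 UMIs, the median of the 100 genes was 0.09 and that of all genes 0.31. Genes at least 10-fold above other barcodes gave a median of -0.65 (48 genes, 45 below 1), and those at least 2-fold above gave -0.42 (357 genes, 311 below 1).

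Slpi and Prg2 were among the lowest of these 100 genes. Slpi, a secreted inhibitor of leukocyte proteases, stood at 3221 CPM in WT and 1200 in A20ZF7, a ratio of 0.373 (0.343 to 0.404). It was found in 287 of 453 WT plasma cells (63.36%) and 254 of 674 A20ZF7 plasma cells (37.69%), and in 2.083% and 2.376% of T cell barcodes, which serve as background. Its UMIs were unequally spread, the 10% of plasma cells with the most holding 55.1% of them in WT and 63.76% in A20ZF7, against 23.39% and 21.79% for all UMIs outside immunoglobulin genes. Within WT, Slpi stood at 3141 CPM under hashtag 7 and 2263 under hashtag 8, both above the A20ZF7 level. Prg2, a granule protein best known from eosinophils, stood at 766 and 252 CPM, a ratio of 0.328 (0.274 to 0.392). Under the hashtags it stood at 848 and 658. With a limit of 40% in place of 10% for the 3 immunoglobulin and J chain genes, the ratios of Slpi and Prg2 were 0.681 and 0.751, within 2-fold, and with the cells of hashtag 8 alone as WT that of Slpi was 0.53. Other low ratios, named after their values were seen, were those of Pafah1b3, a subunit of a phospholipase (271 and 87.3 CPM), the calcium channel gene Cacna1e (211 and 72.7) and the RNA-binding protein gene Cpeb2 (247 and 103).

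Among surface molecules of the plasma cell, Sdc1 and Slamf7 lay past 2-fold. Sdc1, which encodes CD138 (syndecan-1), stood at 369 CPM in WT and 176 in A20ZF7, a ratio of 0.477 (0.38 to 0.597), and at 380 and 358 under hashtags 7 and 8. Slamf7, a self-ligand receptor, stood at 367 and 175, a ratio of 0.475 (0.378 to 0.595). These were the only 2 of the 16 plasma cell markers past 2-fold, while 3.7% of all genes were 2-fold lower. The 16 include genes of the rule. With the total of all UMIs, read for 14 of them, 0 were past 2-fold, against 77 lower and 1226 higher of all 5568 genes. Tnfrsf17 (BCMA), the receptor for the survival factor APRIL, stood at 259 and 141, a ratio of 0.546 (0.42 to 0.706). Its relative Tnfrsf13b (TACI) stood at 329 and 189, a ratio of 0.575 (0.458 to 0.72). Tnfrsf13c (BAFF receptor), which B cells carry before they become plasma cells, had 29 and 34 UMIs and a ratio of 1.07 (0.632 to 1.82).

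The 15 genes highest over other barcodes, ranked by the smaller of the folds in the 2 libraries among genes at 100 CPM or more in both, were Prg2, Ccr10, Cd79a, Mzb1, Tnfrsf17, Vpreb3, Pou2af1, Derl3, Slpi, Eaf2, St8sia6, Ly6d, Fkbp11, Txndc5 and Nrg2, and their levels split into genes that were lower in A20ZF7 and genes at a ratio near 1. Cd79a stood at 1167 CPM in WT and 752 in A20ZF7 (0.644, 0.575 to 0.722), and the surface gene Ly6d at 1334 and 801 (0.6, 0.538 to 0.67). Txndc5, a disulfide isomerase, stood at 2246 and 1515 (0.675, 0.622 to 0.732). Close to 1 were Vpreb3, a chaperone-like partner of immunoglobulin chains in the endoplasmic reticulum (0.925, 0.757 to 1.13), Fkbp11, a prolyl isomerase (0.905, 0.716 to 1.14), the sialyltransferase gene St8sia6 (0.941, 0.698 to 1.27) and the growth factor gene Nrg2 (0.911, 0.646 to 1.28). Mzb1, a cochaperone of IgA assembly and a gene of the rule, stood at 3397 and 2914 (0.858, 0.807 to 0.912).

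Of the 18 listed transcription factors and regulators of plasma cells 15 had enough UMIs, 0 lay past 2-fold in either direction (background 6.9% and 3.7%), and their median log2 ratio was 0.00. With the total of all UMIs 2 were 2-fold higher and the median was 0.49, against 1226 of 5568 and 0.59 over all genes. Prdm1, the gene of Blimp-1, stood at 166 CPM in both libraries, a ratio of 0.999 (0.759 to 1.32). Irf4 stood at 278 and 329, a ratio of 1.18 (0.967 to 1.45), and Pou2af1, a coactivator of octamer factors at immunoglobulin genes, at 354 and 362 (1.02, 0.849 to 1.23). Xbp1, a gene of the rule, stood at 2287 and 1687 (0.738, 0.682 to 0.797). Eaf2, an elongation factor partner high in plasma cells, was lower still, at 562 and 318 (0.567, 0.477 to 0.673).

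In the lists of antibody folding and export 0 genes lay past 2-fold (background 6.9% higher and 3.7% lower). The 28 genes of the unfolded protein response had a median log2 ratio of -0.25 and a summed level of 16758 CPM in WT and 14177 in A20ZF7, against 3419 and 4382 in barcodes of 10 to 100 UMIs. The 27 genes of the translocon and secretory path had a median of -0.27 with sums of 20248 and 16241. The 9 measured genes of immunoglobulin folding and assembly had a median of -0.42 with sums of 9012 and 6902. Of these sums Mzb1, a gene of the rule, held 3397 and 2914, so they are in part a description. With the total of all UMIs the medians of these lists turned to 0.24, 0.22 and 0.07, against 0.59 for all genes. With that total 1 gene of the unfolded protein response list was 2-fold higher, against 1226 of all 5568 genes. Hspa5 (BiP), the chaperone that holds unpaired heavy chains, stood at 1216 and 1153 CPM (0.948, 0.857 to 1.05), and Hsp90b1 (GRP94) at 3962 and 3605 (0.91, 0.86 to 0.963). Herpud1, a part of the degradation complex of the endoplasmic reticulum, stood at 977 and 707 (0.724, 0.641 to 0.816). Derl3, a channel component of that complex, stood at 396 and 240 (0.606, 0.495 to 0.741). Edem2, which takes part in the degradation of misfolded glycoproteins, is not on these lists. It was singled out of the 5-fold group after its values were seen and stood at 643 and 259 (0.402, 0.335 to 0.481).

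Some promoters of this response carry the ER stress element (CCAAT, any 9 bases, then CCACG), through which ATF6 and XBP1 are known to act. It was searched on both strands in windows from 250 bases before to 50 bases after each RefSeq gene start (GRCm38.p6). It was found in 9 of 24 promoters of the unfolded protein response list (37.5%), which were Calr, Canx, Creld2, Derl3, Dnajc3, Hsp90b1, Hspa5, Pdia6 and Syvn1, and in 39 of all 32851 promoters (0.1187%). None of 21 promoters of the secretory path list held it. It was in 1 of 11 of the immunoglobulin folding and assembly list (Ero1b) and in 4 of 79 of the 5-fold group. These 4 (Creld2, Derl3, Hsp90b1 and Syvn1) are all among the 9 of the unfolded protein response list. List counts are by gene, counted where any of its promoters matched, while the total counts single promoters. Excerpts of 3 promoters are shown, the element in capitals with up to 50 bases on each side, since their genes span the range from a ratio near 1 (Hspa5, Hsp90b1) to 0.606 (Derl3). They lie at chr2:34771975-34772089 on the plus strand for Hspa5, chr10:86705483-86705694 on the minus strand for Hsp90b1, and chr10:75893192-75893310 on the plus strand for Derl3, where the element reads in the reverse direction.
Hspa5: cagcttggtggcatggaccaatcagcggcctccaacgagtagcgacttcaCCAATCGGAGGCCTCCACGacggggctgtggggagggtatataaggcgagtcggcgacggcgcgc
Hsp90b1: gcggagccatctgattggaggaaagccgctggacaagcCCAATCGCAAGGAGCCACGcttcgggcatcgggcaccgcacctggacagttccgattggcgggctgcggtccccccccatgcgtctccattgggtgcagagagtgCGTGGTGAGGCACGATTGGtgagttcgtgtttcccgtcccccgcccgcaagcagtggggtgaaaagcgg
Derl3: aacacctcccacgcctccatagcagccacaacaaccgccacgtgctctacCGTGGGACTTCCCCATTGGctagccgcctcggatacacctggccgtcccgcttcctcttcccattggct
Hsp90b1 holds the element at 2 places, once in each direction. The octamer ATGCAAAT, the site of the Oct factors with which Pou2af1 works, was found in 3 of 79 promoters of the 5-fold group (Blnk, Vpreb3 and Zfp296), in 0 of 24 of the unfolded protein response list, and in 570 of all promoters (1.735%), on either strand. The octamer was also in 1 of 21 promoters of the secretory path list (Sec61g) and in 0 of 11 of the immunoglobulin folding and assembly list. A match of letters says nothing of whether a factor was bound.

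**Figure D3:**
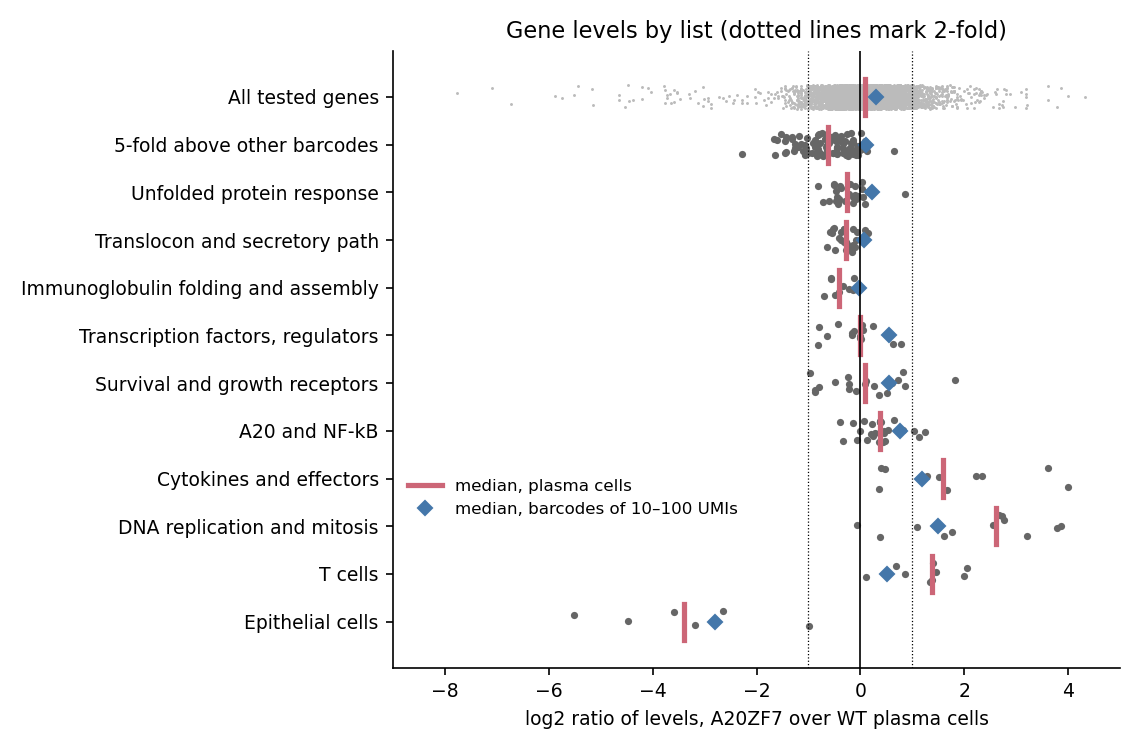
Log2 ratio of gene levels, A20ZF7 over WT plasma cells, 1 point per gene with at least 20 UMIs in the higher genotype, by gene list (dotted lines mark 2-fold). Red bars are list medians in plasma cells and blue diamonds list medians in barcodes of 10 to 100 UMIs; the 5-fold group lies left of 0 at -0.62 and its diamond stands at 0.09.

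Of 19 measured survival and growth receptors and effectors 1 was past 2-fold (background 6.9% higher and 3.7% lower), Il21r, with 16.0 CPM in WT and 56.7 in A20ZF7. In barcodes of 10 to 100 UMIs Il21r stood at 61.6 and 138, above both. Mcl1, on which plasma cells depend, stood at 415 and 356 (0.859, 0.718 to 1.03). Of 11 measured homing and retention genes 0 lay past 2-fold. With the total of all UMIs 5 and 2 genes of these lists were 2-fold higher, with medians of 0.59 and 0.56. Over all genes 1226 of 5568 were, with a median of 0.59. Ccr10, the receptor that guides IgA cells to mucosal surfaces, stood at 174 and 141 CPM (0.811, 0.61 to 1.08). It was 130-fold above other barcodes in WT and 58.8-fold in A20ZF7. The integrin chains Itga4 and Itgb7, which bind the gut vessel addressin, stood at 334 and 349 (1.05, 0.866 to 1.27) and at 160 and 147 (0.92, 0.691 to 1.23).

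In the lists of MHC class II genes and of interferon-stimulated genes 0 of 5 and 0 of 11 measured members were 2-fold lower, 0 and 1 were 2-fold higher, near the background of 3.7% lower and 6.9% higher, and median log2 ratios were 0.08 and 0.06 (0.57 and 0.55 with the total of all UMIs). Cd74, the invariant chain, stood at 3438 CPM in WT and 1911 in A20ZF7, a ratio of 0.556 (0.519 to 0.596). In barcodes of 10 to 100 UMIs it stood at 804 and 658, and under hashtags 7 and 8 at 3561 and 3380. Also within 2-fold, the interferon-inducible surface genes Ly6a (Sca1) and Bst2 (tetherin) stood at 2073 and 1150 (0.555, 0.507 to 0.607) and at 1145 and 734 (0.642, 0.572 to 0.72). Ly6c2, another surface gene of this family, stood at 1022 and 559 (0.547, 0.48 to 0.621). Past 2-fold, 1 of 11 measured MHC class I genes, Nlrc5, an activator of these genes, stood at 25.5 and 75.6. It was also higher in the A20ZF7 barcodes of 10 to 100 UMIs, at 63.2 and 148.

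A20 itself, encoded by Tnfaip3, stood at 310 CPM in WT and 550 in A20ZF7 plasma cells, a ratio of 1.78 (1.49 to 2.12). The point mutations leave the transcript in place, so this level does not check the genotype. In barcodes of 10 to 100 UMIs Tnfaip3 stood at 584 and 1015, above the plasma cells of both libraries, and in T cell barcodes at 1374 and 1328. Of 26 measured genes around A20 and NF-kB, 3 were more than 2-fold higher (the background being 6.9% of genes), 0 lower, and the median log2 ratio was 0.37. With the total of all UMIs 6 were higher and the median was 0.86, against 1226 of 5568 and 0.59 over all genes. Nfkb1, the p105 and p50 subunit gene, stood at 177 and 419 (2.36, 1.89 to 2.97), with 345 and 942 in the barcodes of 10 to 100 UMIs. Rel stood at 68.6 and 150, and Traf1 at 51.1 and 105. Nfkbia, the inhibitor that NF-kB induces, stood at 737 and 589 (0.799, 0.697 to 0.915). With free RNA taken off as above, Tnfaip3, Nfkb1, Rel and Traf1 fell to 0 in both libraries, at scales above 1, so it does not show how much of these levels was free RNA.

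Among genes at 100 CPM or more in the higher genotype, the largest ratio was that of Il17a. This gene, the cytokine of Th17 cells, stood at 31.9 CPM in WT and 394 in A20ZF7 plasma cells, a ratio of 12.4 (7.84 to 20.5). The lowest value of this ratio was 3.73, in plasma cells without a UMI of the stromal, epithelial, myeloid and B cell marker lists. T cell markers were not part of that limit, beyond the rule's own term on T cell genes. The highest was 36.8, with the cells of hashtag 8 alone as WT. At a limit of 40% for the 3 immunoglobulin and J chain genes Ndufb4 (24.5) stood above Il17a (13.2). In barcodes of 10 to 100 UMIs Il17a stood at 36.3 and 294, and in T cell barcodes at 323 and 2012. Areg, the growth factor amphiregulin, stood at 44.7 and 211 in plasma cells and at 150 and 351 in barcodes of 10 to 100 UMIs. Gzmb and Ccl5, products of cytotoxic lymphocytes, stood at 23.9 and 122, and at 271 and 1331. They stood at 140 and 215, and at 1634.8 and 2005, in barcodes of 10 to 100 UMIs. Of WT and A20ZF7 plasma cells, 16.11% and 24.48% held a Ccl5 UMI, as did 57.84% and 55.27% of T cell barcodes. Of 10 measured cytokines and effectors 7 were more than 2-fold higher (background 6.9%) and 0 lower (3.7%), with a summed level of 576 and 1686 in plasma cells and 1274 and 2823 in barcodes of 10 to 100 UMIs.

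Markers of other cell types were measured beside them. Of 9 measured T cell markers 6 were more than 2-fold higher in A20ZF7 plasma cells, and 8 of 9 with the total of all UMIs. Of the 6, Cd3e, Cd3d, Cd3g and Trac are genes of the rule, which allows at most 1 UMI of its T cell genes. Their values are a description and are not set against the background. Trbc1 and Cd5 lie outside the rule, and the background was 6.9% of all genes. The summed level of the list was 271 and 569 CPM against 4468 and 4504 in T cell barcodes. The most abundant was Thy1. Stromal markers summed to 2383 and 3155 with 0 of 7 past 2-fold and a median log2 ratio of 0.42, led by Dcn. With the total of all UMIs 3 of 7 were 2-fold higher and the median was 0.91, against 1226 of 5568 and 0.59 over all genes. Of the other large ratios, Zc3h7a, a zinc finger protein, stood at 92.6 and 687 in plasma cells and at 66.5 and 457 in barcodes of 10 to 100 UMIs, and the complement gene C3 at 126 and 550 (91.8 and 201). Within WT, C3 stood at 178 under hashtag 7 and 48.1 under hashtag 8. Ndufb4, a complex I subunit, stood at 41.5 and 205 (9.35 and 78.0), and its ratio turned to 0.15 with free RNA taken off. In T cell barcodes Zc3h7a stood at 98.0 and 460 and Ndufb4 at 13.1 and 117. In stromal barcodes they stood at 72.7 and 852, and at 25.8 and 192. The gene lists of the libraries differ, and the part of this in the ratios was not tested. Tnfsf8 (27.1 and 126), Ece1 (30.3 and 112) and Hif1a (60.7 and 220) completed the largest ratios, and each was also higher in the A20ZF7 barcodes of 10 to 100 UMIs, at 328 against 67.6, 140 against 49.5 and 501 against 218. Without a UMI of the stromal, epithelial, myeloid and B cell lists, the ratios of Areg and Ece1 were 1.40 and 1.71, within 2-fold. That of Areg was 1.88 with a limit of 40% for the 3 immunoglobulin and J chain genes.

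Among genes at 100 CPM or more in the higher genotype, most of the smallest ratios were those of genes of absorptive epithelium. Fabp1, the fatty acid binding protein of enterocytes, stood at 871 CPM in WT and 18.9 in A20ZF7 plasma cells, a ratio of 0.0217 (0.0115 to 0.0374). It stood at 1079 and 112 in barcodes of 10 to 100 UMIs. Within WT it was at 234 under hashtag 7 and 2573 under hashtag 8. Its 546 WT UMIs lay in 34 of 453 plasma cells, and 1 cell held 219 of them. Apoa1, an apolipoprotein of chylomicrons, stood at 466 and 4.36, with 32.3 and 1423 under hashtags 7 and 8. Also lower were Apoa4 (172 and 2.91), Apoc2 (126 and 2.91), the retinol binding protein gene Rbp2 (824 and 23.3), Fabp2 (420 and 18.9), Spink1 (188 and 10.2) and Prap1 (199 and 1.45). Under hashtags 7 and 8 Apoa4 stood at 16.15 and 476, Apoc2 at 8.08 and 396, and Rbp2 at 194 and 2493. Fabp2 stood there at 121 and 1252, Spink1 at 32.3 and 578, and Prap1 at 24.2 and 583. Pigr, the epithelial receptor that carries IgA into the lumen, stood at 134 and 7.27 in plasma cells and at 410 and 11.8 in barcodes of 10 to 100 UMIs. Under hashtags 7 and 8 Pigr stood at 24.2 and 332. With a limit of 20% in place of 10% for the 3 immunoglobulin and J chain genes, the ratios of Fabp1, Apoa1, Rbp2, Prap1 and Spink1 were 0.215, 0.143, 0.195, 0.299 and 0.487. With a limit of 40% Apoa1 (0.565), Pigr (0.706) and Plac9a (0.706) lay within 2-fold, and Fabp1 and Rbp2 stood at 0.314 and 0.471. Of 6 measured epithelial markers 5 were more than 2-fold lower (background 3.7%), and the list summed to 1984 and 159 in plasma cells and 3053 and 594 in barcodes of 10 to 100 UMIs. The lowest ratio among genes at 100 CPM or more, that of Plac9a (319 and 1.45), is uncertain, since its near copy Plac9b is listed for A20ZF7 alone.

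Between the WT mice, 98 of 1401 genes (7.0%) were at least 2-fold higher and 20 (1.43%) at least 2-fold lower in plasma cells of hashtag 8 than of hashtag 7. Of the 100 genes of the 5-fold group, 69 stood above their A20ZF7 level under both hashtags, 23 under 1 and 8 under neither, and the median log2 ratio of hashtag 8 to hashtag 7 was -0.22. Sdc1, Slamf7 (363 and 332 CPM), Tnfrsf17 (258 and 219) and Edem2 (703 and 626) lay above their A20ZF7 levels under both. Derl3 (476.5 and 299.5) and Ly6d (1575 and 1048) differed more between the hashtags, and Vpreb3 (428 and 246) lay on both sides of its A20ZF7 level of 294. With the 110 cells of hashtag 8 alone as WT, the median log2 ratio of the 5-fold group was -0.39.

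Genes of DNA replication and mitosis were higher in A20ZF7 plasma cells. Of 12 measured members of the list 10 were more than 2-fold higher (background 6.9%) and 0 lower (3.7%), the median log2 ratio was 2.62, and the list summed to 367 CPM in WT and 1236 in A20ZF7. Mki67, the gene of the Ki-67 protein, stood at 9.58 and 88.7, Top2a, a topoisomerase of dividing cells, at 6.39 and 88.7, and Pclaf, a PCNA-associated factor, at 6.39 and 93.1. Pcna and Cks2 were the members that stayed within 2-fold, with ratios of 1.30 and 0.955. Free RNA held these transcripts too, with a sum of 748 and 1881 in barcodes of 10 to 100 UMIs.

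A UMI of Mki67 or Top2a was present in 5 of 453 WT plasma cells (1.104%, 0.359 to 2.56) and in 69 of 674 A20ZF7 plasma cells (10.24%, 8.05 to 12.8). Stromal barcodes (median depths 1160 and 1178 UMIs) had one in 1.507% and 7.829%, and T cell barcodes in 5.685% and 20.07%. With each barcode thinned to 500 UMIs the shares were 0.2208% and 3.858% in plasma cells and 0.6375% and 3.023% in stromal barcodes. Immunoglobulin genes and Jchain take 61.65% and 45.52% of plasma cell UMIs, so thinned plasma cells keep fewer other UMIs than stromal barcodes, and these shares are not compared. Among A20ZF7 plasma cells with at least 40% of UMIs from the rule's antibody genes the unthinned share was 2.15% (0.589 to 5.41), against 0.855% (0.0216 to 4.67) in WT, and these intervals overlap.

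A limit of 5 UMIs over the 20 genes of the list, chosen after the data had been seen, was met by 3 WT plasma cells (0.6623%, 0.137 to 1.92) and 46 A20ZF7 plasma cells (6.825%, 5.04 to 9.0). The same limit was met by 0.8114% and 5.91% of stromal barcodes and by 5.756% and 19.78% of T cell barcodes. The intervals of the plasma cell shares hold the stromal shares in both libraries. The 46 A20ZF7 cells were all IgA cells, and 1 heavy chain V gene dominated in 39 of 41. Their rule genes made up a median of 17.96% of UMIs against 32.02% in the other A20ZF7 plasma cells, and their median of UMIs outside immunoglobulin genes, which the limit favours, was 1729 against 855.5. The stromal list summed to 1091 CPM in these 46 cells and 3316 in the others. Barcodes with a second, dividing cell were not sought by a doublet caller.

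**Figure D4:**
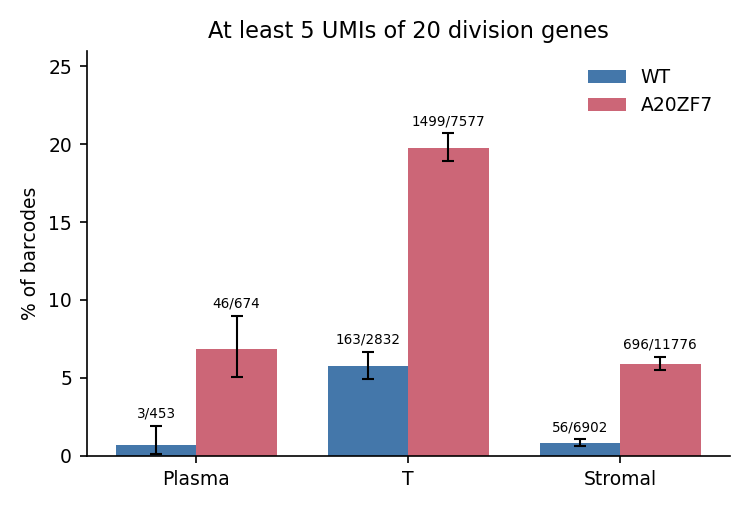
Share of barcodes (in %) with at least 5 UMIs over 20 genes of DNA replication and mitosis, for plasma cells and for T cell and stromal barcodes of WT and A20ZF7, with exact 95% intervals. Plasma cells stand at 0.6623% and 6.825%, stromal barcodes at 0.8114% and 5.91%.

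Surface proteins were read in WT alone, from 138 antibodies whose oligonucleotide tags are counted beside the RNA. The antibody matrices of the genotypes held identical values, and at passing barcodes their median was 2143 UMIs in WT against 49 in A20ZF7, so the A20ZF7 plasma cells were not used. The tags that carry the results are printed here with those of the hashtags of the WT mice.
CD39: GCGTATTTAACCCGT
PDL1: TCGATTCCACCAACT
CD138: GCGTTTGTATGTACT
Hashtag 7: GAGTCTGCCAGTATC
Hashtag 8: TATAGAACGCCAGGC
CD39, an enzyme that degrades extracellular ATP, stood highest over the other WT barcodes, with a median of 533 per 10000 antibody UMIs (10th to 90th percentile 292 to 826) against 184, a ratio of 2.90. Its gene Entpd1 stood at 141 CPM in WT and 116 in A20ZF7 plasma cells, 2.10-fold and 2.41-fold above other barcodes. PDL1, the ligand of the inhibitory receptor PD-1, followed with 22.8 against 10.2 per 10000 (ratio 2.25), which are medians of 5 and 2 UMIs. Its gene Cd274 stood at 158 and 224 CPM, 4.61-fold and 3.22-fold above other barcodes.

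In the opposite direction, the antibody labelled CD90pt2 had a median of 16.3 per 10000 in plasma cells against 42.8 in the other WT barcodes (ratio 0.381) and 90.9 in T cell barcodes, and a second antibody, labelled CD90, stood at 40.3 against 40.2. CD90 (Thy1) is a surface protein of T cells. Of the other antibodies described here none reached these differences. Those to the MHC class II molecule IA and to Sca1 had ratios of 1.56 and 1.43, those to CD43 and BST2 1.40 and 1.36, and that to the integrin chain CD49d 1.31. The 3 isotype control antibodies stood at 26.7 (IgG2a), 23.04 (IgG1) and 9.30 (IgG2b) in plasma cells, against 25.9, 25.1 and 9.51 in the others. The plasma cell medians of PDL1, Sca1 (21.2), CD43 (13.7) and BST2 (24.3) lay within the range of these controls. The CD138 antibody did not separate plasma cells, although their Sdc1 transcripts stood at 369 CPM in WT. Its median was 45.01 per 10000 in plasma cells and 44.88 in other WT barcodes, and 3.974% of plasma cells lay above the 95th percentile of the others. The antibodies to CD45R (B220) and IgM likewise stood at 15.8 against 15.5 and at 72.1 against 69.6.

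**Figure D5:**
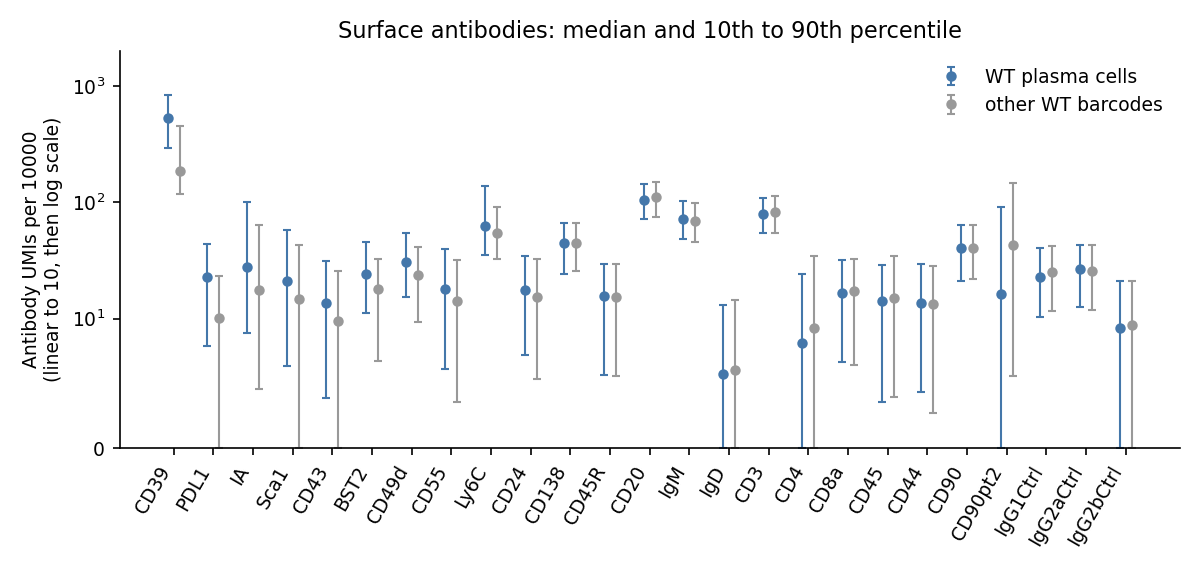
Antibody UMIs per 10000 (linear up to 10, then log scale) for the antibodies named on the axis, WT plasma cells (blue) and other WT barcodes (grey), as median and 10th to 90th percentile over barcodes. CD39 (533 against 184), PDL1 (22.8 against 10.2) and CD90pt2 (16.3 against 42.8) stand apart most, and CD138 (45.01 against 44.88) does not. The names ending in Ctrl are isotype controls.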

How the data were processed

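Single-cell RNA-Seq of SILP cells was made by the authors with Cell Ranger, version 7.1 in the submitters' processing notes and 8.0.0 in the headers of the gene expression matrices. The deposited gene matrices hold raw UMI counts for every listed barcode, unfiltered, on mm10. The antibody matrix, also deposited UMI counts, was used for WT alone. The analysis ran in Python 3.11.15 with pandas 2.3.3, scipy 1.17.1 and numpy 2.4.6. The limits of 200 to 2500 genes and 15% mitochondrial UMIs follow the study, and a limit of 500 UMIs was added. Hashtags were called with HTODemux at a quantile of 0.99 (Seurat 5.3.0, R 4.3.3), and 1980 WT barcodes with both hashtags were left in. No doublet caller was run beyond the term on T cell genes.

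Genes were matched by ID, with 31950 IDs listed for both libraries. A further 1746 IDs were listed for WT alone and 335 for A20ZF7 alone, so the gene lists of the libraries differ. This difference cannot be told apart from genotype. Levels (CPM) are UMIs per 1000000 UMIs outside immunoglobulin genes and Jchain, ratios have exact conditional intervals, and shares have exact binomial (Clopper-Pearson) intervals. A gene was counted as 2-fold higher or lower where it had at least 20 UMIs in the higher genotype, and a gene at 0 was set at 3 UMIs. T cell barcodes held at least 3 UMIs of the T cell genes of the rule and no collagen UMI, and stromal barcodes at least 5 UMIs of Col1a1, Col1a2, Col3a1 and Dcn. Some listed genes are not reported here. Genes named in the text are members of fixed lists, the 10 largest and 10 smallest ratios at 100 CPM or more, and the 15 genes highest over other barcodes by the smaller of the folds in the libraries, at 100 CPM or more in both. A few others are said to be named after their values were seen. The members and lists were chosen with earlier results of these data known. The steps were tested on simulated data. Sequences come from GRCm38 with GENCODE vM21 (V exons), RefSeq promoters of GRCm38.p6 and the deposited antibody list (tags). 5′ libraries read the start of transcripts, where V genes lie, and somatic mutation or near copies can move V gene counts.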

Additional observations from a re-analysis of the deposited data

How the results depend on the processing

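No paired analysis was possible because each genotype is 1 library of pooled mice. The ratio of shares reversed to 1.135 with no limit on T cell genes (2.438% in WT and 2.766% in A20ZF7), and the ratio of Ndufb4 reversed to 0.15 with free RNA taken off, at scales of 1.339 and 2.648 that exceed the plasma cells' own RNA. Shares moved to 4.505% and 3.324% (ratio 0.738) at a minimum of 1000 UMIs, to 1.937% in A20ZF7 at 5% immunoglobulin, to 1.779% and 1.357% (0.763) at 20%, to 0.528% and 0.486% at 40%, to 1.485% in A20ZF7 with at least 2 UMIs of Mzb1 and Xbp1, and to 1.725% and 1.32% (0.766) with 0 UMIs of T cell genes. The ratio of shares was 0.923 (0.823 to 1.035) at 5% immunoglobulin, 0.921 (0.731 to 1.159) at 40% and 0.892 (0.793 to 1.003) with UMIs of the gene IDs shared by both libraries, intervals that reach 1. The IgA share reached 100% in both libraries at 20% and 40% immunoglobulin, and in WT under hashtag 7 or 8 alone. It also did so in both libraries in members without a UMI of other cell types (48 WT and 124 A20ZF7 members). Other cell types here means the stromal, epithelial, myeloid and B cell marker lists, Cd79a included. Markers of T cells, innate lymphoid cells and mast cells were not part of this limit. The share with 1 dominant heavy chain V gene was 97.3% in WT at 40% immunoglobulin, 100% in WT and 99.0% in A20ZF7 without UMIs of other cell types, and 88.75% under hashtag 7 alone.

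The share with an Mki67 or Top2a UMI was 7.71% in A20ZF7 at 20% immunoglobulin, 2.15% at 40%, 13.2% with no limit on T cell genes, 0% in WT and 7.26% in A20ZF7 without UMIs of other cell types, 2.73% in WT under hashtag 8 alone, and 0.221% and 3.86% thinned to 500 UMIs. At least 5 division UMIs were found in 6.825% of A20ZF7 members. Genes 2-fold higher and lower numbered 71 and 46 at 40% immunoglobulin, 66 and 22 without UMIs of other cell types, 761 and 46 with hashtag 7 alone, 598 and 82 with hashtag 8 alone, 1226 and 77 with the total of all UMIs, 45 and 1954 with free RNA taken off, 122 and 47 at 50 UMIs or more, and 761 and 506 at 10 UMIs or more, and 577 were higher with no limit on T cell genes. The median log2 ratio of the 5-fold group stayed below 0 under all 18 alternatives, at -0.52 with 20% immunoglobulin, -0.36 with 40%, -0.76 with no limit on T cell genes, -0.51 without UMIs of other cell types, -0.39 with hashtag 8 alone, -0.13 with all UMIs and -0.97 with free RNA taken off. The causes were not tested.

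Single genes were counted across the alternatives only for those with the largest and smallest ratios and those highest over other barcodes. Other genes named past 2-fold, such as Sdc1, Slamf7, Edem2, Nfkb1, Rel and Traf1, were not part of this count. Of 22 counted genes past 2-fold, 14 stayed past 2-fold under each alternative that gave a value, and 347 of 359 values did. The others were Ndufb4, Areg, Ece1, Plac9a, Apoa1, Pigr, Prg2 and Slpi. Slpi ranged from 0.314 to 0.681 and Prg2 from 0.289 to 0.751, with the highest values at 40% immunoglobulin. Values with both levels at or under the floor were left out, 38 in all. Depth limits genes of few UMIs, and free RNA differs between the libraries.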

Other observations

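Lambda constant gene UMIs were found in many plasma cells that were called for kappa. An Iglc2 UMI was present in 404 of 453 WT plasma cells (89.18%, median 7 UMIs) and 438 of 674 A20ZF7 plasma cells (64.99%, median 1 UMI), against 3.566% and 3.088% of T cell barcodes. Iglc3, a near copy of Iglc2, was found in 71.96% and 31.75% of plasma cells. In the same way an Ighg2b UMI was found in 71 WT (15.67%) and 84 A20ZF7 (12.46%) plasma cells, while 1 cell in each library was called for Ighg2b and held up to 656 and 351 UMIs. Ighg2b was found in 0.3884% and 2.019% of T cell barcodes. Whether these UMIs are transcripts of the cells or reads of related sequence was not tested.

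Gm30211, a long noncoding RNA gene that overlaps the Igkc locus and was named after its values were seen, stood at 12219 CPM in WT and 7894 in A20ZF7 plasma cells, a ratio of 0.646 (0.624 to 0.669), and at 341 and 354 in barcodes of 10 to 100 UMIs.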
